A study of Mus musculus with 27 samples.

Results

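Expression of 10 nuclear receptor genes was followed in mouse hepatic stellate cells (HSCs) through acute and chronic liver injury. The set was made up of the 3 peroxisome proliferator-activated receptors (Ppara, Ppard, Pparg), the retinoid X receptor alpha (Rxra), the retinoic acid receptors alpha and beta (Rara, Rarb), the liver X receptor alpha (Nr1h3), the bile acid receptor FXR (Nr1h4), the vitamin D receptor (Vdr) and the orphan receptor Nur77 (Nr4a1). They were chosen by name as receptors for lipids, bile acids, retinoids and vitamin D plus Nur77, out of 53379 genes in the count table, and were found there by their Ensembl IDs. All 10 of the receptors passed the filter on low counts that left 18758 genes to be tested, Vdr only through injured groups in which it was high.

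HSCs are the pericyte-like cells of the liver sinusoid that store vitamin A and turn into collagen-producing cells after injury. RNA was sequenced in bulk from HSCs of male Balb/c mice that were sorted on the fluorescence that their retinoid droplets give under ultraviolet light and lysed without culture. The 27 libraries formed 7 groups. Healthy mice, 10 to 12 weeks old, received no injection and gave 4 libraries, so no group received the mineral oil alone. Acute mice, of the same age, received 1 intraperitoneal injection of carbon tetrachloride (CCl4, a hepatocyte toxin) in mineral oil at 0.5 µL per g of body weight, and gave 3 libraries at 24 h, 4 at 72 h and 4 at 7 d after it. Chronic mice were 8 to 10 weeks old at the start, received 8 such injections over 4 weeks, and gave 4 libraries each at 24 h, 72 h and 14 d after the last one. Per the study's methods each repeat was an experiment of its own. A sort on retinoid fluorescence takes cells that still hold retinoid, which is the population all values below refer to.

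Apart from Nr4a1, the receptors are ligand-activated transcription factors. PPARs are activated by fatty acids, the liver X receptor by oxysterols, FXR by bile acids, the retinoic acid receptors by all-trans retinoic acid and the vitamin D receptor by calcitriol, and all of these bind DNA as a pair with a retinoid X receptor. In HSCs, ligands of Pparg, of the vitamin D receptor and of FXR are known to restrain activation, and retinoic acid signalling is tied to the vitamin A store of the cell. Nr4a1 is controlled mainly by how much of it is made, and is induced within minutes by many stimuli, including tissue dissociation.

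Total counts ranged from 6.31 M to 13.1 M, and 8 libraries (all of chronic 14 d and replicates 1 and 2 of chronic 24 h and of chronic 72 h) held at most 7.58 M against at least 10.8 M in the other 19. All 12 stellate cell markers were detected in each group, but their summed expression was 27649 to 47642 CPM (counts scaled to the TMM-adjusted library size) in healthy libraries and 15459 to 18381 in chronic 24 h libraries. Markers of other cells moved as well. The summed macrophage markers were at 159 to 649 CPM in healthy and 4109 to 10690 CPM in acute 7 d libraries, and the hepatocyte markers at 143 to 331 CPM in acute 24 h and 1519 to 7353 CPM in chronic 14 d libraries. Endothelial, neutrophil and portal fibroblast or mesothelial markers stayed at or below 433, 52.1 and 65.7 CPM, and the 5 cholangiocyte markers, which include Spp1 and Sox9, reached 4797 CPM at acute 7 d. In bulk RNA, fewer cells of a type and less RNA per cell cannot be told apart.

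In healthy HSCs the receptors spanned a wide range of levels. Per kb of exon, Nr4a1 stood highest at 350 ± 74.2 CPM (SD, n = 4), above 99.3% of the genes tested. Rxra followed at 83.3 ± 8.67, Nr1h4 at 57.2 ± 14.9 and Rara at 42.9 ± 12.8 CPM per kb, all above at least 93.6% of genes. Nr1h3 had 8.49 ± 1.55, Rarb 4.76 ± 1.20, Ppara 2.43 ± 0.161 and Ppard 1.25 ± 0.563 CPM per kb. Pparg and Vdr were close to the limit of detection, at 0.32 ± 0.234 and 0.0247 ± 0.031 CPM per kb, with 43 and 6 counts over the 4 healthy libraries. The retinoic acid receptor type found at the highest level was thus alpha, while Nr1h3 stood below its relative Nr1h2, which held 78.4% ± 8.7 of the liver X receptor total per kb. Rxra held 83.5% ± 0.713 of the retinoid X receptor total, and Rxrg at most 0.0996% in any healthy library.

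**Figure D1:**
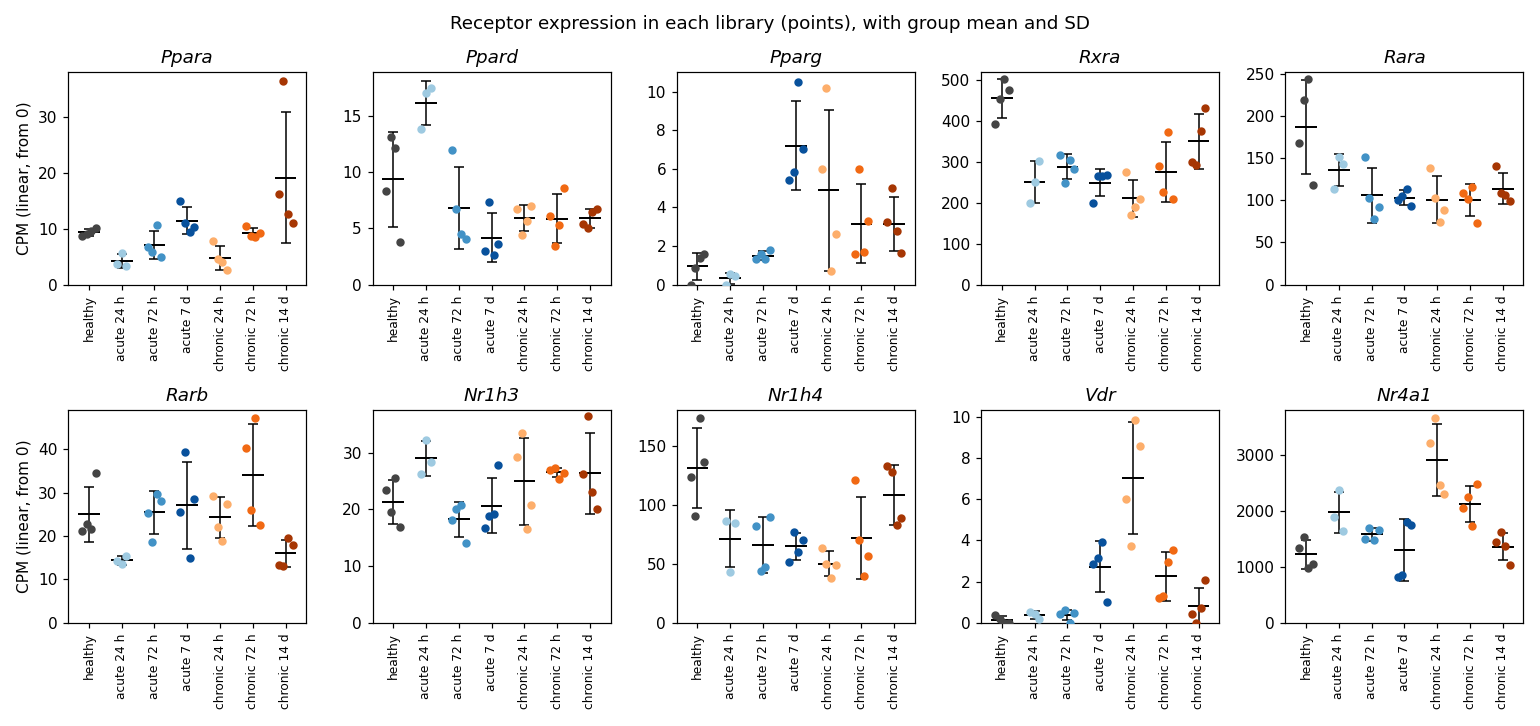
Expression of the 10 receptors in each of the 27 libraries (points, CPM on linear axes that start at 0 and differ between panels), with the mean and SD of each group in black. Every healthy Rxra value (391 to 502 CPM) lies above every chronic 24 h value (170 to 274 CPM), and Vdr exceeds 3 CPM in all chronic 24 h libraries.

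Promoter sequence was inspected because several of these receptors regulate their own genes. In windows from 250 bases before to 50 bases after each RefSeq gene start (GRCm38.p6), direct repeats of the hexamer AGGTCA with 1 to 5 bases between its copies were searched on both strands, where either copy could also be AGTTCA, a variant known to be bound, or likewise GGGTCA, or instead of these GGTTCA. Such a repeat was in 0.7% of all 32851 windows. Among the 10 receptors the Rarb window alone held one, a repeat with a spacing of 5 bases, the arrangement that retinoic acid receptors are known to bind, which was in 0.0974% of all windows. It lay from base -53 to base -37 relative to the RefSeq gene start. In the GENCODE M21 annotation of the same build, where 4 transcripts of the gene begin farther upstream, these bases fall in the untranslated part of the first exon of 2 of them. The window of Cyp26a1, which encodes a retinoic acid-degrading enzyme, held a repeat of the same spacing. The site is shown with the repeat in capitals, at chr14:16575507-16575536 on the minus strand:
Rarb: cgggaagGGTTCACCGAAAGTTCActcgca

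The Nr4a1 window held the letters TGCGTCA, a shortened form of the cAMP response element TGACGTCA, 4 times, starting at bases -235, -215, -71 and -42. These letters were in 2.12% of all windows on either strand, and the full TGACGTCA, which the Nr4a1 window lacked, in 1.79%. A match is a match of letters and not a measured site. The stretch at chr15:101266596-101266845 on the plus strand, which lies in an intron of a longer GENCODE M21 transcript of the gene and holds no annotated exon, is shown with those letters in capitals:
Nr4a1: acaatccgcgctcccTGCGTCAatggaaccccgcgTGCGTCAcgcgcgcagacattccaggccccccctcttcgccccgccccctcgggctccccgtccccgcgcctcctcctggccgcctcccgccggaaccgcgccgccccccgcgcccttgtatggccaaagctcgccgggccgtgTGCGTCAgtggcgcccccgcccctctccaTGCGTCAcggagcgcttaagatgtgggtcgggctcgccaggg

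Across the 7 groups, 9 of the 10 receptors differed by the edgeR quasi-likelihood F-test with Benjamini-Hochberg adjustment over all genes, against 56% of all genes tested. Vdr had the smallest adjusted p (4.85e-05) and Nr1h3 was the receptor without a call (adjusted p = 0.101). Since Vdr passed the filter only through injured groups where it was high, it could hardly be called lower than in healthy. Against healthy cells, Rxra, Rara and Nr1h4 were each lower in 5 of the 6 injured groups, Vdr and Nr4a1 higher in 3, Pparg higher in 2, Ppara lower in 2, and Ppard and Rarb lower in 1. No receptor was called higher in some groups and lower in others against healthy.

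By group, 7 receptors were called in chronic 24 h against healthy where 31% of all genes were called, 3 of them higher (17.1% of all genes) and 4 lower (14%). At chronic 72 h the count was 5 against 20% of all genes, with 2 higher (11%) and 3 lower (9%). At chronic 14 d it was 1 against 8.61%, with 0 higher (5.12%) and 1 lower (3.49%). A single injection gave 5 at 24 h against 33.7%, with 1 higher (15.5%) and 4 lower (18.1%). At 72 h 3 were called against 21.9%, all of them lower (8.81%) and none higher (13.1%), and at 7 d 6 against 23.7%, with 2 higher (13.1%) and 4 lower (10.6%). Leaving out acute 24 h replicate 1, 2 or 3 reduced the acute 24 h count to 1, 2 and 2, and healthy replicate 3 or 4 to 3. The acute 72 h count fell to 1 without healthy replicate 3 and to 2 without acute 72 h replicate 2 or 3, the chronic 72 h count to 3 without healthy replicate 3 or chronic 72 h replicate 4, and the chronic 14 d count to 0 without healthy replicate 1, 2 or 3 or chronic 14 d replicate 2.

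**Figure D2:**
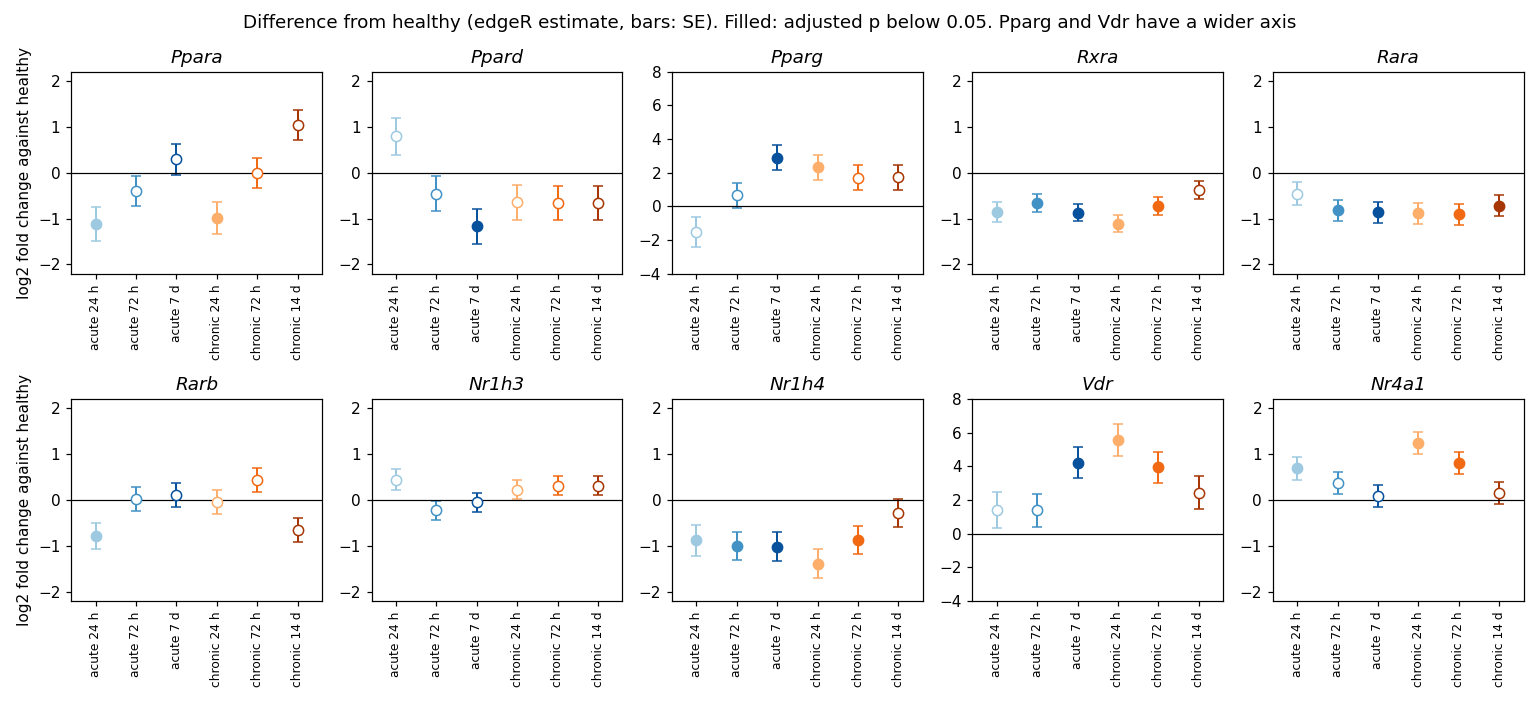
Log2 fold change of each receptor against healthy in the 6 injured groups (points, edgeR estimate; bars, SE; filled points, adjusted p below 0.05). Rxra, Rara and Nr1h4 lie below 0 in all 6 groups, and Vdr, on a wider axis, lies above 0 in all 6.

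Rxra, the shared partner of the other receptors, was lower after every injury except at chronic 14 d. Healthy libraries held 391, 452, 502 and 475 CPM. Chronic 24 h libraries held 274, 170, 189 and 208 CPM, a fall by 1.11 on the log2 scale (SE 0.19, adjusted p = 8.20e-05), with no overlap between the groups. The acute groups had 199, 250 and 301 CPM at 24 h, 316, 248, 305 and 282 CPM at 72 h, and 200, 264, 264 and 267 CPM at 7 d. All of these lay below the lowest healthy library, and the log2 fold changes were -0.86 (adjusted p = 0.00214), -0.66 (0.0129) and -0.87 (0.00156). After the course of 8 injections Rxra stood at 290, 226, 373 and 210 CPM at 72 h (log2 fold change -0.73, adjusted p = 0.00742) and at 298, 293, 375 and 431 CPM at 14 d. The last group overlapped healthy (-0.38, 95% interval -0.75 to -0.02, unadjusted p of the F-test 0.0525, adjusted p = 0.222) and was higher than chronic 24 h by 0.73 on the log2 scale (SE 0.19, adjusted p = 0.00647). Rxra still made up 72.8% to 84.5% of the retinoid X receptor total per kb in each group mean. Among higher-depth libraries alone, the values were -1.18 at chronic 24 h (adjusted p = 0.00108) and -0.61 at chronic 72 h, where the call was lost (adjusted p = 0.0731). Summed stellate cell markers were lower after injury as well, from a median of 41765 CPM in healthy libraries. Their medians were 32611, 17308 and 21414 CPM at acute 24 h, 72 h and 7 d. At chronic 24 h, 72 h and 14 d they were 17510, 23415 and 26980 CPM. The part of this change in the Rxra, Rara and Nr1h4 values was not tested.

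Rara, the main retinoic acid receptor of these cells, was lower in all injured groups but acute 24 h. Its healthy values were spread out, at 167.98, 219.20, 244.44 and 118.19 CPM. Chronic libraries held 138, 103, 74.1 and 88.6 CPM at 24 h, 109, 102, 116 and 73 CPM at 72 h and 141, 109, 106 and 99.6 CPM at 14 d. Healthy replicate 4 lay among the injured libraries and the other healthy libraries above all of them. Replicate 4 also had the fewest genes detected of all libraries, 18807 against 22499 to 26162 in the other healthy ones. The part of this in its values was not tested. The log2 fold changes were -0.89 (adjusted p = 0.00409), -0.91 (0.00587) and -0.72 (0.0492), and -0.82 (0.0108) and -0.86 (0.00757) at acute 72 h and 7 d. At acute 24 h, with 114, 151 and 143 CPM, the fold change was -0.46 (95% interval -0.94 to 0.02, adjusted p = 0.157), and -0.63 and called without healthy replicate 4. The chronic 14 d call was lost without any of 6 libraries (healthy replicates 1, 2 and 3, chronic 14 d replicates 2, 3 and 4; -0.77 to -0.56), and the acute 72 h call without healthy replicate 3 (-0.67). With the size factors of DESeq2 or library size alone in place of TMM scaling, the chronic 14 d value was -0.67 (adjusted p = 0.0745) or -0.54 (0.15). A fit of only the 2 groups compared ended the calls at chronic 14 d (-0.64, adjusted p = 0.157) and acute 72 h (-0.83, 0.0695). Within the higher-depth libraries the chronic 24 h and 72 h values were -1.19 and -0.95, both called.

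Rarb, itself a known target of retinoic acid, was called against healthy in 1 group, acute 24 h, where it was lower. Its 3 libraries had 14.2, 13.5 and 15.5 CPM against 21.1, 22.8, 21.7 and 34.5 CPM in healthy, without overlap (log2 fold change -0.79, SE 0.29, adjusted p = 0.0351). The call was lost without healthy replicate 4 or without any acute 24 h library (-0.85 to -0.60). From 24 h to 7 d after a single injection Rarb was higher by 0.91 (SE 0.29, adjusted p = 0.0146), with 25.6, 39.3, 14.9 and 28.5 CPM at 7 d, a call lost without acute 24 h replicate 2 or acute 7 d replicate 2 (0.67 to 0.86). Its highest group mean was 34 ± 11.8 CPM at chronic 72 h and its lowest after acute 24 h was 16 ± 3.21 CPM at chronic 14 d, and neither was called against healthy (0.44, adjusted p = 0.246; -0.65, adjusted p = 0.132). Of the 5265 exonic bases of Rarb, 1793 are shared with Top2b on the opposite strand, which had 41517 counts over the 27 libraries against 6971 for Rarb. Top2b was also lower at acute 24 h (-0.65, adjusted p = 0.0107) and higher from there to acute 7 d (0.70, adjusted p = 0.00552), and was the gene whose levels followed Rarb most closely. The strand used in counting is not stated, so reads of the 2 genes cannot be told apart.

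Nr1h4, the bile acid receptor, fell with Rxra and Rara. Healthy libraries held 124, 91.1, 174 and 137 CPM and chronic 24 h libraries 63.7, 49.7, 38.1 and 49.3 CPM, which did not overlap (log2 fold change -1.39, SE 0.31, adjusted p = 0.00137). Acute libraries held 86.5, 43.6 and 84.9 CPM at 24 h, 82.3, 44.1, 47.2 and 90.3 CPM at 72 h and 51.7, 77.6, 59.9 and 70.7 CPM at 7 d, all under the lowest healthy library. The log2 fold changes were -0.88 at 24 h (adjusted p = 0.0462) and -1.02 at 7 d (0.018), and the level at 72 h was 0.501 times that of healthy (0.0217). At chronic 14 d the values were 133, 128, 83.5 and 89.3 CPM, higher than chronic 24 h by 1.11 (SE 0.31, adjusted p = 0.0112), and differed from healthy by -0.28 (95% interval -0.88 to 0.32, adjusted p = 0.642). With depth as a term the latter difference was -0.96 (SE 0.39, adjusted p = 0.166), so the level at 14 d relative to healthy depended on that setting. Chronic 72 h was mixed, with 121 CPM in replicate 1 and 70.3, 39.5 and 57.1 CPM in the others (-0.87, adjusted p = 0.0467). Several of these calls rested on single libraries: that of chronic 72 h was lost without healthy replicate 1, 3 or 4 or chronic 72 h replicate 2, 3 or 4 (-0.90 to -0.63), that of acute 24 h without healthy replicate 1, 3 or 4 or any acute 24 h library (-1.04 to -0.62), that of acute 72 h without healthy replicate 3 or acute 72 h replicate 2 or 3 (-0.88 to -0.83), and that of acute 7 d without healthy replicate 3 or acute 7 d replicate 1 (-0.91 to -0.86). The chronic 72 h call was also lost under either other scaling (-0.86 and -0.74), and it (-0.86) and that of acute 24 h (-0.81) in a fit of only the 2 groups compared. Within higher-depth libraries the difference was -1.58 at chronic 24 h and -1.41 at chronic 72 h, both called, and with depth as a term the rise from chronic 24 h to 14 d was 0.78 and not called (adjusted p = 0.104).

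Nr1h3, the oxysterol receptor that drives cholesterol export genes, kept within a narrow range. Its group means ran from 18.2 ± 3.03 CPM at acute 72 h to 29 ± 3.05 CPM at acute 24 h, with 21.4 ± 3.90 CPM in healthy. The largest log2 fold change against healthy was 0.44 at acute 24 h (95% interval 0 to 0.89, adjusted p = 0.143), and the interval at chronic 24 h was -0.19 to 0.64. No comparison of groups called it, but the difference of acute 7 d from acute 24 h (-0.49) became -0.66 and was called without acute 7 d replicate 4.

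The make-up of the PPAR genes differed between groups. Per kb, Ppara made up 61.7% ± 9.02 of the PPAR total in healthy cells, Ppard 30.5% ± 11.4 and Pparg 7.8% ± 6.08 (n = 4). Ppard led at acute 24 h with 64.2% ± 6.03 (n = 3) and Pparg was at 2.97% ± 2.57. Pparg was at 40.6% ± 11.5 at acute 7 d and 38.6% ± 22.3 at chronic 24 h, and Ppara held 70.4% ± 6.84 at chronic 14 d (n = 4 each).

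**Figure D3:**
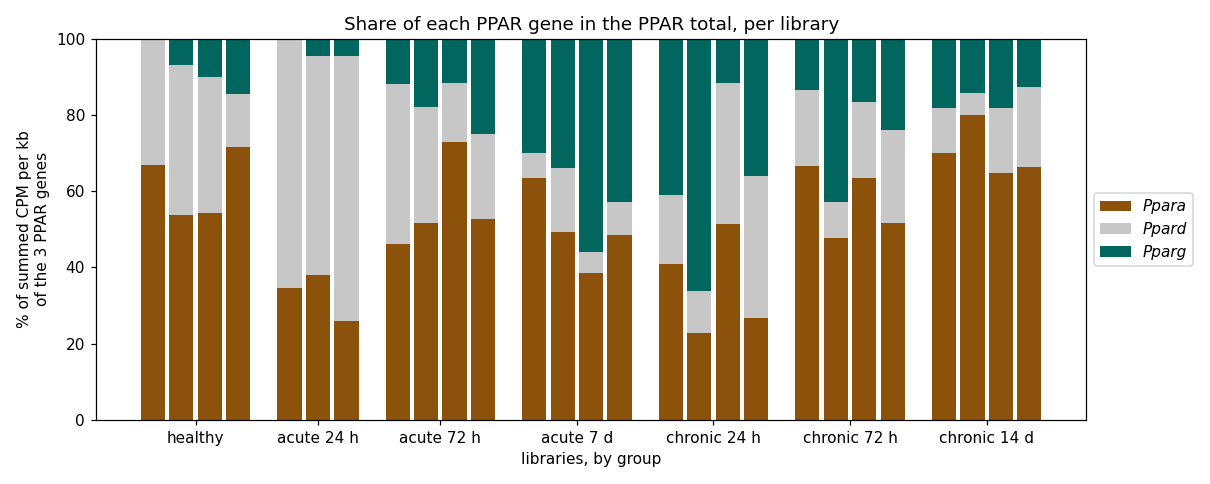
Share of Ppara, Ppard and Pparg in the summed CPM per kb of the 3 genes, 1 bar per library. Ppard holds the largest share in all 3 acute 24 h libraries (57.7% to 69.5%), and Ppara the largest in all 4 chronic 14 d libraries (64.9% to 80.1%).

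Ppara, the driver of fatty acid oxidation genes, was low at 24 h after either regimen. Healthy libraries held 8.61, 9.07, 9.52 and 10.1 CPM, acute 24 h libraries 3.74, 5.73 and 3.34 CPM and chronic 24 h libraries 7.79, 4.53, 4.03 and 2.56 CPM. No library at 24 h reached the lowest healthy value, and the log2 fold changes were -1.12 (SE 0.37, adjusted p = 0.0219) and -0.99 (SE 0.34, adjusted p = 0.0288). Both calls depended on single libraries. That at acute 24 h was lost without acute 24 h replicate 1 or 3 (-1.04 to -0.98), and that at chronic 24 h without healthy replicate 3 or 4 or chronic 24 h replicate 2, 3 or 4 (-0.98 to -0.78), while in the higher-depth libraries the latter was -1.49 (adjusted p = 0.00393) and in a fit of those 2 groups alone -0.99 (adjusted p = 0.0608). At chronic 14 d Ppara had 16.3, 36.4, 12.7 and 11 CPM, all above the highest healthy library, with replicate 2 far above the rest. It was higher than at chronic 24 h by 2.03 on the log2 scale (SE 0.35, adjusted p = 0.000171). Against healthy it was 1.04 higher (95% interval 0.39 to 1.69), short of the threshold (adjusted p = 0.0527), past it with DESeq2 (1.09, adjusted p = 0.0207), with its size factors in edgeR (0.0477) or library size alone (0.0234), and without chronic 14 d replicate 3 or 4, and 0.56 without chronic 14 d replicate 2. Hepatocyte markers moved with Ppara in part. In chronic 14 d replicates 1 to 4 their sum was 3177, 7353, 1621 and 1519 CPM, the same order as Ppara, and at acute 24 h it was 143, 165 and 331 CPM, below every healthy library (531 to 3209 CPM), although the highest of these sums went with the lowest Ppara of that group. At chronic 24 h, where Ppara was lower, the sum (median 1221 CPM) was not below that of healthy (822 CPM), and at chronic 72 h it was 3121 CPM while Ppara differed from healthy by -0.01. Of the 10 markers, 8 were called lower at acute 24 h (18.1% of all genes) and 4 higher from chronic 24 h to 14 d (10.1%). None of the markers was at 0 throughout a group, and their part in the Ppara values was not tested. Depth was low in each chronic 14 d library and high in each healthy one. With depth as a term, which the mixed depths of chronic 24 h and 72 h allow to be fitted, the difference of chronic 14 d from healthy was 0.55 (SE 0.46, adjusted p = 0.537). Within the lower-depth libraries, 2 of them chronic 24 h, the rise to 14 d was 1.68 (adjusted p = 0.0752).

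Ppard, the most widely expressed PPAR, had its highest values at 24 h after a single injection. Acute 24 h libraries held 13.9, 17.1 and 17.5 CPM and acute 7 d libraries 2.99, 7.38, 2.66 and 3.6 CPM, a fall by 1.96 (SE 0.41, adjusted p = 0.000524). Chronic 24 h libraries held 6.75, 4.39, 5.7 and 6.96 CPM, all below acute 24 h (log2 difference -1.44, SE 0.40, adjusted p = 0.0125). Healthy values ranged from 3.81 to 13.1 CPM. Against them Ppard was lower at acute 7 d (-1.17, adjusted p = 0.0286), a call lost without healthy replicate 2 or 3 or acute 7 d replicate 1, 3 or 4 (-1.10 to -0.97), and was 0.79 higher at acute 24 h without a call (95% interval 0.01 to 1.57, unadjusted p of the F-test 0.0599, adjusted p = 0.135). The acute 7 d call was also lost in a fit of only the 2 groups (-1.18, adjusted p = 0.115). In higher-depth libraries alone the difference between the 24 h groups was -1.38 (adjusted p = 0.112).

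Pparg, the adipogenic PPAR and also a gene of tissue macrophages, was near the limit of detection in healthy and acute 24 h cells. Its values were 0, 0.878, 1.35 and 1.56 CPM in healthy, 0, 0.521 and 0.439 CPM at acute 24 h and 5.42, 5.82, 10.5 and 7.05 CPM at acute 7 d. The acute 7 d libraries lay above all of these, by 2.90 on the log2 scale against healthy (SE 0.75, adjusted p = 0.00663) and 4.44 against acute 24 h (SE 0.94, adjusted p = 0.000647). By summed counts, acute 7 d held 360 and healthy 43, a ratio of 7.48 (95% counting interval 5.44 to 10.5). Chronic 24 h libraries were uneven, at 6, 10.2, 0.702 and 2.64 CPM. Their fold change against healthy was 2.33 (SE 0.74, adjusted p = 0.0199). It was 1.67 and not called without replicate 2, 2.33 in a fit of only the 2 groups (adjusted p = 0.122), 1.29 with depth as a term (adjusted p = 0.224) and 0.83 in the higher-depth libraries alone (adjusted p = 0.507). Against acute 24 h it was 3.86 (SE 0.93, adjusted p = 0.0043), 3.20 without chronic 24 h replicate 2, and 2.33 in the higher-depth libraries (adjusted p = 0.128). At chronic 72 h and 14 d Pparg held 1.6, 6, 1.71 and 3.29 CPM and 3.24, 5, 2.77 and 1.62 CPM, every value above the healthy maximum, with log2 fold changes of 1.70 (adjusted p = 0.109) and 1.72 (0.159). With depth as a term these were 1.02 (adjusted p = 0.356) and 0.29 (0.903), and the difference between the 24 h groups was 2.83 (0.0349).

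Macrophage markers moved with Pparg. In chronic 24 h replicates 1 to 4 their sum was 2578, 3671, 540 and 1155 CPM, which is the order of Pparg, and at acute 7 d it was 4109, 6035, 10690 and 7140 CPM, again with the same order. All 10 markers were detected in every group. Against healthy, 9 of them were higher at acute 7 d (13.1% of all genes) and 7 at chronic 24 h (17.1%). At chronic 72 h 7 were higher (11%) and at chronic 14 d 3 (5.12%), while 3 were lower at acute 24 h (18.1%). In the same order DESeq2 gave 10, 7, 8 and 4 higher, and 4 lower at acute 24 h. The genes closest to Pparg over the 27 libraries were Slc7a7, Nceh1 and Laptm5 (Pearson r 0.91, 0.91 and 0.90 of log2 CPM, out of 10288 genes compared), the last of which is a leukocyte lysosomal gene. Those for Ppara were C1rl, Slc10a1 and Cat (0.89, 0.89 and 0.86), of which Slc10a1 is the bile acid transporter of hepatocytes. Libraries share group, depth and cell makeup, so these r values describe the set of libraries only. With group means removed they were 0.76, 0.77 and 0.74 for Pparg and 0.75, 0.71 and 0.65 for Ppara. The part of other cells in the Pparg values was not tested.

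**Figure D4:**
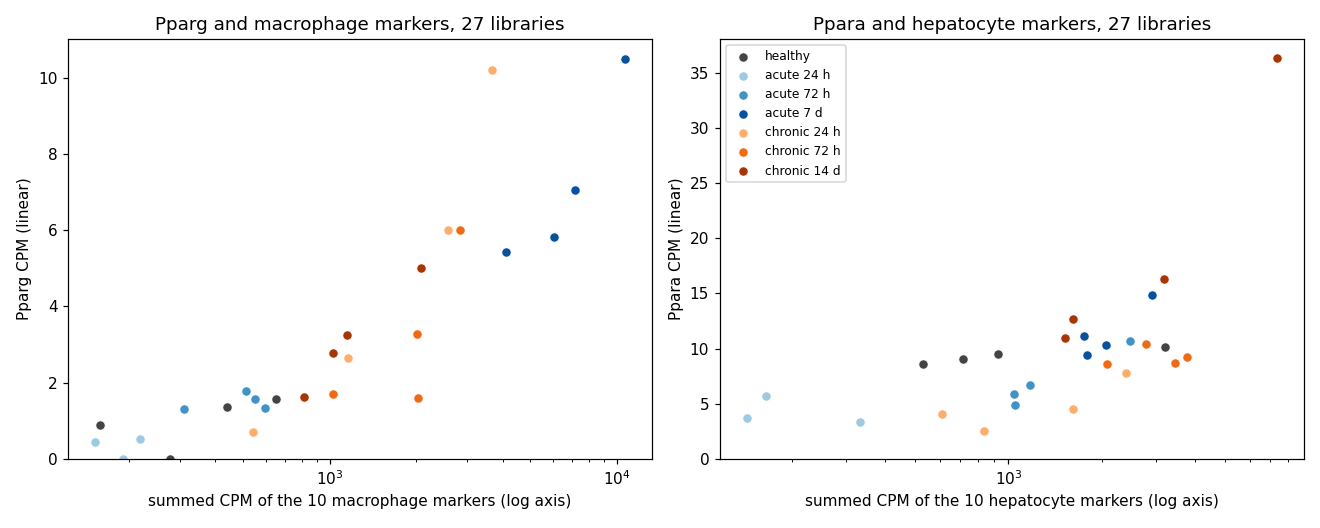
Pparg against the summed CPM of 10 macrophage markers (left) and Ppara against that of 10 hepatocyte markers (right) in the 27 libraries, with logarithmic x axes, linear y axes and colours for the groups. The 2 libraries over 10 CPM of Pparg, 1 of acute 7 d and 1 of chronic 24 h, have the highest macrophage sums of their groups (10690 and 3671 CPM), and the library with 36.4 CPM of Ppara has the highest hepatocyte sum (7353 CPM).

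Vdr, the receptor of the antifibrotic hormone calcitriol, rose from a level near the limit of detection. Healthy libraries held 4, 2, 0 and 0 counts, or 0.363, 0.195, 0 and 0 CPM. Chronic 24 h libraries held 40, 27, 112 and 107 counts, or 6, 3.71, 9.82 and 8.56 CPM, higher by 5.58 on the log2 scale (SE 0.94, adjusted p = 8.20e-05). The ratio of summed counts after scaling was 56.3 (95% counting interval 25.5 to 155), and without healthy replicate 1 the fold change was 6.61. Vdr then stood at 1.2, 1.29, 2.96 and 3.53 CPM at chronic 72 h (3.95, adjusted p = 0.00365) and at 0.405, 0, 0.722 and 2.06 CPM at chronic 14 d (2.43, adjusted p = 0.126; 2.57 and 0.0482 with DESeq2; 3.56 and 0.0855 with depth as a term), lower than at chronic 24 h by 3.15 (SE 0.81, adjusted p = 0.0066). After a single injection it was late, with 0.534, 0.434 and 0.176 CPM at 24 h, 0.443, 0.606, 0 and 0.465 CPM at 72 h and 2.83, 3.12, 3.94 and 0.996 CPM at 7 d. The call against healthy came at 7 d (4.21, SE 0.92, adjusted p = 0.00186). At 24 h after the last injection the chronic group exceeded the acute group by 4.17 (SE 0.95, adjusted p = 0.00284), 286 counts against 13, and by 4.52 in the higher-depth libraries (adjusted p = 0.00454). Without healthy replicate 1 the fold changes against healthy were 4.98 at chronic 72 h and 5.24 at acute 7 d. The rise from acute 24 h to 7 d (2.80, adjusted p = 0.0175) lost its call without acute 24 h replicate 2 or 3 (2.47 to 2.90), and the fall from chronic 24 h to 14 d was 4.12 on the log2 scale without chronic 14 d replicate 4.

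The order of the chronic 24 h libraries by Vdr was not that by macrophage markers: the highest Vdr (9.82 CPM) was in the library with the lowest macrophage sum (540 CPM). The summed cholangiocyte markers were higher in the groups where Vdr was called, at 559 to 1296 CPM at chronic 24 h, 254 to 842 CPM at chronic 72 h and 758 to 4797 CPM at acute 7 d, against 55.8 to 103 CPM in healthy, 87.4 to 104 CPM at acute 24 h and 131 to 183 CPM at acute 72 h. At chronic 14 d, where Vdr was not called, they were at 206 to 368 CPM, also above healthy and overlapping chronic 72 h. Of the 5 markers, Spp1 was called higher in all 3 groups with a Vdr call and Sox9 in both chronic ones of these, while the epithelial genes Krt19, Krt7 and Epcam were not called in any of the 3, and the part of such cells in the Vdr values was not tested. In the higher-depth libraries the chronic 24 h difference from healthy was 5.98 (adjusted p = 0.000213). The genes closest to Vdr were Mgp, Scara3 and Col15a1 (r 0.87, 0.86 and 0.85 over 27 libraries), extracellular matrix or membrane genes, and with group means removed these r values were 0.34, 0.21 and 0.16. None of the 7 genes listed as vitamin D targets passed the count filter, and 2 had no count at all. Cyp24a1, which breaks down calcitriol and is the usual readout of the receptor, had no count in any group but acute 24 h, where its mean was 0.0594 CPM.

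Nr4a1 had the highest level per kb of exon of the 10 receptors in every group and rose further at chronic 24 h. Its values there were 3214, 3662, 2465 and 2302 CPM against 1336, 1541, 976 and 1054 CPM in healthy, without overlap (log2 fold change 1.25, SE 0.24, adjusted p = 0.000341). At chronic 72 h it had 2050, 2255, 1734 and 2491 CPM (0.80, adjusted p = 0.0198) and at chronic 14 d 1442, 1619, 1373 and 1028 CPM, within the healthy range but for replicate 2. The drop from chronic 24 h to 14 d was 1.09 on the log2 scale (-1.09, SE 0.24, adjusted p = 0.00195) and -1.28 among the lower-depth libraries (adjusted p = 0.00775). Acute 24 h libraries held 1899, 2375 and 1650 CPM (0.69, adjusted p = 0.0396), and acute 7 d libraries formed 2 levels, with 811 and 848 CPM in replicates 1 and 2 and 1813 and 1746 CPM in replicates 3 and 4. The acute 24 h call was lost without healthy replicate 3 or 4 or acute 24 h replicate 1 or 2 (0.53 to 0.72). That at chronic 72 h was lost without healthy replicate 3 or chronic 72 h replicate 4 (0.70 to 0.71) and in the higher-depth libraries (0.82, adjusted p = 0.0795), which gave 0.97 at chronic 24 h (adjusted p = 0.0258).

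Both relatives of Nr4a1 rose with it at chronic 24 h, Nr4a2 by 4.04 (adjusted p = 6.33e-08) and Nr4a3 by 2.06 (adjusted p = 0.00103). Nr4a1 nevertheless held 93.9% ± 0.508 of the family total per kb at chronic 24 h and 98.3% ± 0.69 in healthy (n = 4 each). Nr4a3 and Nr4a2 were also, after Lpl, the genes most like Nr4a1 over the 27 libraries (r 0.86 for Lpl and 0.81 for each of the relatives). With group means removed, r was 0.62 for Lpl, 0.55 for Nr4a3 and 0.75 for Nr4a2. The other immediate early genes did not run the same way. Their summed level was 54399 to 67539 CPM in healthy libraries and 45617 to 47762 CPM at chronic 24 h. There 2 of 15 were called higher (17.1% of all genes) and 7 lower (14%), among them Jun at -0.96 (adjusted p = 0.000125) and, in the other direction, Egr3 at 1.99 (adjusted p = 0.000316). At acute 7 d 1 was higher (13.1% of all genes) and 11 lower (10.6%). These genes answer to tissue dissociation, and its part in the Nr4a1 values was not tested.

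Recovery was read from 14 d against 24 h after the last chronic injection, where 5 receptors were called against 23% of all genes, 3 higher (10.1%) and 2 lower (12.9%). Ppara, Rxra and Nr1h4 were higher and Vdr and Nr4a1 lower, each opposite in sign to its call at chronic 24 h against healthy. Both comparisons use the chronic 24 h libraries, so the opposite signs are not independent. In the lower-depth libraries alone, with chronic 24 h replicates 1 and 2, Nr4a1 kept its call and the others did not (Ppara 1.68, Rxra 0.71, Nr1h4 0.99, Vdr -2.54). From 24 h to 7 d after a single injection 5 receptors were called against 39.9% of all genes, 4 higher (22.6%) and 1 lower (17.4%), namely Ppara (1.42, adjusted p = 0.00409), Pparg, Rarb and Vdr as higher and Ppard as lower. That count was 3 without acute 24 h replicate 2, and 6 and 7 without acute 7 d replicates 3 and 4, when Nr4a1 (-0.60 with all libraries, -0.80 and -0.77 without them) was called lower.

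The courses were compared at matched times. At 24 h, 3 receptors differed between chronic and acute injury against 21.3% of all genes, with Vdr and Pparg higher (14%) and Ppard lower (7.32%) after 8 injections, and 1, Vdr, did so in the higher-depth libraries. Rxra (-0.25, 95% interval -0.64 to 0.14), Nr1h4 (-0.52, -1.16 to 0.13) and Ppara (0.13, -0.60 to 0.86) had intervals that included 0. Rarb (0.75, adjusted p = 0.0635) was called as higher in the chronic group without chronic 24 h replicate 3 (0.86) and by DESeq2 (0.76, adjusted p = 0.0453). The step from 24 h to 72 h was compared between chronic and acute injury as an interaction, and edgeR called 0 of the 10 receptors (10.8% of all genes, 3.2% with a higher and 7.64% with a lower step), 3 at an unadjusted p below 0.05, and DESeq2 likewise 0. The most negative difference of steps was that of Pparg (-2.80, SE 1.14, adjusted p = 0.123), and leaving out acute 72 h replicate 1 gave 1 call, Ppard (1.65).

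Target genes of the receptors were counted from lists of genes known to answer to each, and the counts are to be read against the shares of all genes called higher and lower in the same comparison (17.1% and 14% at chronic 24 h, 15.5% and 18.1% at acute 24 h). These shares were 11% and 9% at chronic 72 h and 5.12% and 3.49% at chronic 14 d. At acute 72 h they were 13.1% and 8.81%, and at acute 7 d 13.1% and 10.6%. The counts of the further lists below are to be read against the same shares. Of 26 PPAR targets tested, 7 were higher and 1 lower at chronic 24 h (8 and 1 by DESeq2), with a median log2 fold change of 0.37 (-0.03 over all genes). Angptl4, which inhibits lipoprotein lipase, rose by 3.43 (adjusted p = 1.45e-06), the mitochondrial carrier Ucp2 by 2.82 and the fatty acid receptor Cd36 by 2.44, and the acyl-CoA synthetase Acsl1 fell by 1.93. After 1 injection, at 24 h, 7 were higher and 5 lower (7 and 7 by DESeq2). The edgeR count of lower targets was near the share of all genes. Angptl4 was at 988 to 1840 CPM there against 19.9 to 58.3 CPM in healthy (5.31, adjusted p = 2.48e-08), and Pdk4, which restrains glucose oxidation, was higher (1.81), whereas the gluconeogenic enzyme Pck1 (-5.21) and Acsl1 (-2.34) were lower. The last 2 are genes of high hepatocyte expression. Summed macrophage markers were higher at chronic 24 h, with a median of 1866 CPM against 358 CPM in healthy. The part of other cells in the PPAR target values, higher or lower, was not tested. Chronic 72 h, chronic 14 d, acute 72 h and acute 7 d had 5, 4, 4 and 5 PPAR targets higher and 0 lower. By DESeq2 they had 5, 6, 5 and 7 higher, with 1 lower at acute 72 h. The edgeR count of higher targets at acute 72 h was near the share of all genes.

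FXR targets were all lower at acute 24 h, 6 of the 6 tested, with a median of -5.42. Abcb11, the bile salt export pump, had a mean of 0.0868 CPM there (0 to 0.26) and 7.38 ± 9.53 CPM in healthy. At chronic 24 h 1 of 6 was lower (2 by DESeq2), Abcb11 (-3.11, adjusted p = 0.0111), an edgeR count near the share of all genes. From chronic 24 h to 14 d 4 were higher (5 by DESeq2), against 10.1% of all genes by edgeR. Hepatocyte markers moved with this list, 8 of 10 lower at acute 24 h with a median of -3.47, and their part was not tested. In chronic 72 h, chronic 14 d, acute 72 h and acute 7 d neither edgeR nor DESeq2 called an FXR target (0, 1, 1 and 0 at an unadjusted p below 0.05), while Nr1h4 itself was lower in 3 of these 4 groups.

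LXR targets were called in both directions. At acute 24 h 1 of 12 was higher and 4 lower, among them the sterol exporter Abcg1 (-2.50, adjusted p = 0.000157) and Mylip (-2.34), a ligase that degrades the LDL receptor. At acute 72 h 0 were higher and 4 lower, led by Apoe (-1.44), and at chronic 24 h 0 were higher and 3 lower (1 and 4 by DESeq2), led by Mylip (-1.36). By acute 7 d 3 were higher and 1 lower, with the desaturase Scd1 at 2.23 and the sterol exporter Abca1 at 1.33. Scd1 was also higher at chronic 72 h (3.25, adjusted p = 5.91e-05), where 2 were higher and 1 lower, and at chronic 14 d (2.06), where 1 was higher (3 by DESeq2). Nr1h3 itself was called in none of these groups.

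Retinoic acid targets were counted over 9 tested genes. Dhrs3, a retinal reductase that retinoic acid induces, had the widest swing. It was at 19.8 to 25.6 CPM at acute 24 h (-1.86, adjusted p = 0.000101) and at 179 to 318 CPM at chronic 24 h (1.54, adjusted p = 0.000227), against 42 to 110 CPM in healthy. The difference between the 24 h groups was 3.40 (adjusted p = 3.51e-07). Over the list, 2 were higher and 2 lower at chronic 24 h, 4 and 0 at chronic 72 h, 1 and 0 at chronic 14 d, 1 and 2 at acute 24 h, 1 and 1 at acute 72 h and 3 and 1 at acute 7 d. Cyp26a1, whose promoter window held the 5-base repeat, was under the count filter and had means of 0.267 CPM in healthy, 0 at acute 24 h, 0.08 at chronic 24 h, 4.2 at chronic 72 h and 5.54 CPM at chronic 14 d. The filter drops a gene that reaches its limit in fewer libraries than the smallest group holds. The means at chronic 72 h and chronic 14 d thus rest mainly on single libraries and show no rise of a whole group.

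**Figure D5:**
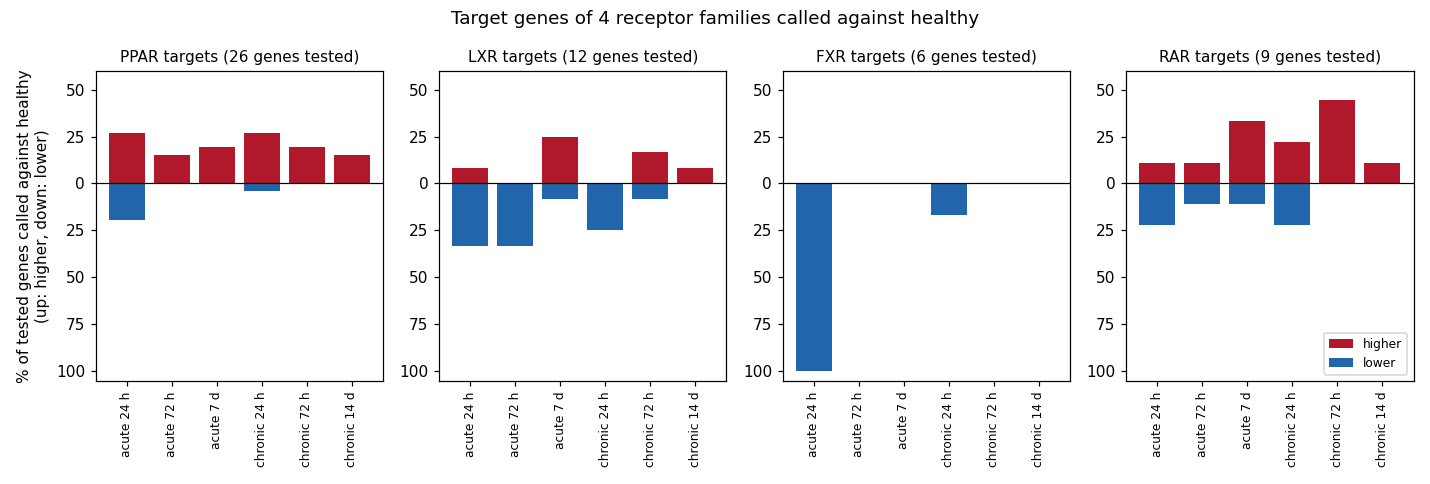
Percent of the tested target genes of the PPAR, LXR, FXR and RAR families called higher (red, upwards) or lower (blue, downwards) than healthy in each injured group. All 6 FXR targets are lower at acute 24 h, and at chronic 72 h 4 of 9 RAR targets are higher and none lower.

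Genes that supply retinoids to these receptors changed in both directions. At chronic 24 h 4 of 14 were higher and 1 lower, with the fatty acid and retinoic acid carrier Fabp5 at 3.34 (adjusted p = 0.00139), the retinal dehydrogenase Aldh1a3 at 1.48 and the carotene-cleaving enzyme Bco1 at -0.60. Aldh1a3 was higher in 5 of the 6 injured groups, up to 2.49 at acute 24 h (adjusted p = 2.00e-05). Acute 24 h cells had 6 higher and 3 lower, and the latter, Ttr, Adh1 and Rbp4 (-3.78 to -3.14), are hepatocyte-rich genes. Counts were 3 higher (5 by DESeq2) and 2 lower at chronic 72 h, 2 and 1 at chronic 14 d, 1 and 0 at acute 72 h, and 3 and 2 at acute 7 d.

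Other nuclear receptors fell more often than they rose at 24 h. Of 29 tested, 2 were higher and 14 lower at acute 24 h (median -1.50, all genes -0.12), and 3 were higher and 7 lower at chronic 24 h. The steroid receptors Esr1 (-2.29), Nr3c1 (-1.62) and Nr3c2 (-2.82), for oestrogen, glucocorticoids and mineralocorticoids, were lower at chronic 24 h, and Esr1 (-3.50), Hnf4a (-3.70) and Nr0b2 (-5.71) at acute 24 h, of which the last 2 are hepatocyte genes. Counts of higher and lower receptors were 2 and 4 at chronic 72 h, 1 and 1 at chronic 14 d, 1 and 5 at acute 72 h and 1 and 4 at acute 7 d. Of 15 coregulators, 2 were higher and 4 lower at chronic 24 h, among them the corepressor Ncor1 (-1.51, adjusted p = 0.00361) and the coactivator Ncoa2 (-0.80). Lpin1, a coactivator of Ppara, was lower at acute 24 h (-1.98, adjusted p = 3.21e-05) and higher at chronic 72 h (1.60), chronic 14 d (1.00) and acute 7 d (1.10). The coregulators gave 2 higher and 4 lower at chronic 72 h, 1 and 0 at chronic 14 d, 0 and 4 at acute 24 h, 0 and 2 at acute 72 h (4 lower by DESeq2) and 1 and 5 at acute 7 d.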

How the data were processed

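Bulk RNA of sorted HSCs was sequenced in 27 libraries of 7 groups, which were set from the sample labels. The authors checked and trimmed the reads, aligned them with STAR to the mouse genome (GRCm38) and assembled transcripts with StringTie; the versions, the annotation release, the strand setting and the step from the assembly to counts are not given in the sources used here. The deposited values are whole-number counts per gene and library, and no column was left unmatched (0). Total counts of 6.31 M to 13.1 M set the precision, and intervals of counts cover counting error only.

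Counts were tested in R 4.3.3 with edgeR 4.0.16 (TMM scaling, filterByExpr by group, robust quasi-likelihood F-test, 1 fit of all 27 libraries), with Benjamini-Hochberg adjustment over 18758 genes and calls at an adjusted p below 0.05. Intervals of fold changes are 95% normal intervals from the SE, and can exclude 0 where the F-test gives an unadjusted p above 0.05. CPM used the TMM-scaled library size, and log2 CPM a prior count of 2. Exon lengths came from GENCODE M21 and promoters from RefSeq. The script was tested on simulated data. The p-values test differences between group means against a spread between libraries that is estimated over all groups together.

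Alternatives were 2 other scalings, DESeq2 1.42.0, 2 other filters, a 2-fold minimum, fits of only the groups compared, depth class (below or above 9 M counts) as a term or as a split, a replicate block and each library left out. Same-numbered libraries deviated together in chronic 14 d against chronic 24 h alone (all 4 pairs, r 0.1 to 0.25 over 10293 genes, median of other pairs -0.11), where the block changed no call.

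All 10 receptors are named. Of each further list (other nuclear receptors, coregulators, targets of PPAR, LXR, FXR, RAR and VDR, retinoid supply, immediate early, clock and activation genes), up to 3 of the highest and 3 of the lowest called genes whose log2 CPM averages 1 or more are named per comparison, and as most alike the 3 genes with the highest Pearson r among those averaging 3 or more. Top2b, Rxrg, Nr1h2, Cyp24a1, Cyp26a1 and Abcb11 were named besides, after their values were seen. A few genes that the rule covers are not reported here. The lists overlap, with Hnf4a, Ttr, Lrat and Nr0b2 among the genes on more than 1 list. The receptors and lists were chosen with earlier results of these data known.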

Additional observations from a re-analysis of the deposited data

Results flagged for a closer look

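A single library lay apart from the other 3 of its group in 2 of the 60 groups of 4 libraries examined for the 10 receptors, by the gap of the extreme library over the range of its group. Chance marks about 1 in 20 groups. Rxra had 200 CPM in acute 7 d replicate 1 against 264 to 267 CPM in the others of that group. Rarb had 34.5 CPM in healthy replicate 4 against 21.1 to 22.8 CPM in the other healthy libraries.

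The chronic and acute courses differed at 24 h after the last injection, by a test of the difference itself, in Vdr (log2 difference 4.17), Pparg (3.86) and Ppard (-1.44). These courses differ in the number of injections, in the age of the mice and, for 2 of the 4 chronic libraries, in depth. Chronic mice were 8 to 10 weeks old at the first injection and were taken after the 4-week course. Acute mice were 10 to 12 weeks old, so age and number of injections cannot be told apart.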

How the results depend on the processing

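Counts of receptors called moved by over 1.5 times under the following alternatives. A 2-fold minimum left 1 at chronic 72 h, 0 at chronic 14 d, 1 at acute 24 h and 0 at acute 72 h against healthy. At chronic 14 d the count was 0 without the filter and with only the groups compared, 2 with a mean of at least 1 CPM and 3 with DESeq2. At acute 24 h it was 2 without the filter. Higher-depth libraries alone gave 3 at chronic 72 h and 1 for chronic against acute 24 h, and lower-depth libraries alone 1 for chronic 14 d against 24 h. With the replicate block the acute 24 h count was 3, Rarb (-0.75, adjusted p = 0.0634) and Nr4a1 (0.68, adjusted p = 0.0505) losing their calls, and it changed no other call of the 10 comparisons; acute 24 h and healthy libraries share only a number (1 of 3 pairs over 0.1, 2 of 3 acute libraries closest to their own number). Leaving out libraries in turn gave counts of 5 to 7 at chronic 24 h, 3 to 5 at chronic 72 h, 0 to 1 at chronic 14 d, 1 to 5 at acute 24 h, 1 to 3 at acute 72 h, 4 to 6 at acute 7 d, 5 to 5 for chronic 14 d against 24 h, 3 to 7 for acute 7 d against 24 h, 3 to 4 for chronic against acute 24 h, 0 to 1 for the step to 72 h and 8 to 10 among the groups.

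Fold changes that turned their sign were all of receptors without a call. Against healthy these were Nr1h3 at chronic 24 h (-0.01 with depth as a term, -0.18 in higher-depth libraries), Ppara at chronic 72 h (0.11 with library size alone, 0.01 without the filter), Nr1h3 and Nr4a1 at chronic 14 d (-0.10 and -0.12 with depth as a term), Rarb at acute 72 h (-0.02 with size factors and with DESeq2) and Nr1h3 at acute 7 d (0.05 with library size alone). Between chronic 14 d and 24 h, Ppard was 0.05 with size factors and with DESeq2, 0.16 with library size alone, 0.01 with either other filter, 0.18 with depth as a term, 0.07 with only the groups compared and 0.15 in lower-depth libraries, Nr1h3 -0.08 with depth as a term and -0.19 in lower-depth libraries, and Rara -0.03 in the latter. Rxra between acute 7 d and 24 h was 0.02 with size factors, DESeq2 and only the groups compared and 0.10 with library size alone, and Ppara between chronic and acute 24 h -0.15 with depth as a term and -0.41 in higher-depth libraries. Leaving out libraries gave ranges across 0 for Rarb at chronic 24 h (-0.14 to 0.15), acute 72 h (-0.08 to 0.22) and acute 7 d (-0.12 to 0.31), Ppara at chronic 72 h (-0.08 to 0.06), Nr1h3 (-0.22 to 0.06) and Nr4a1 (-0.11 to 0.27) at acute 7 d, Ppard (-0.13 to 0.12), Pparg (-0.97 to 0.05) and Nr1h3 (-0.07 to 0.25) between chronic 14 d and 24 h, Rxra (-0.15 to 0.15) and Nr1h4 (-0.40 to 0.02) between acute 7 d and 24 h, Ppara between chronic and acute 24 h (-0.21 to 0.40), and Ppara (-0.01 to 0.63) and Nr4a1 (-0.28 to 0.07) in the step to 72 h. The cause was not tested.

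Of the 100 fold changes, 94 kept direction and call with DESeq2, 94 with its size factors in edgeR, 93 with library size alone, 90 with depth as a term and 98 with the replicate block. Library size alone raised the median of all genes by up to 0.17. Vdr could not be fitted against healthy at chronic 14 d, acute 24 h and acute 72 h when only those groups were used, since it missed the filter. Low counts limit Pparg and Vdr in healthy and acute 24 h libraries.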

Other observations

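The activation genes give the state of the cells in which the receptors were measured. All 7 (Acta2, Col1a1, Col1a2, Col3a1, Timp1, Lox and Tagln) rose at chronic 24 h and at acute 72 h, led at chronic 24 h by the actin gene Acta2 (log2 fold change 8.94, adjusted p = 3.28e-07). At acute 7 d 6 were higher, and Tagln was at 0.02. At acute 24 h 5 were higher, while Col1a2 and Col3a1 were both at -0.34 without a call, and at chronic 14 d 2 were higher by edgeR and 4 by DESeq2, the former being the collagen crosslinking enzyme Lox (1.68) and Col1a1 (1.44). Their summed level was 3802 to 4239 CPM in healthy, 17165 to 28829 CPM at chronic 24 h, 29111 to 49074 CPM at acute 7 d and 5253 to 7514 CPM at chronic 14 d.

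Clock genes, some of which are regulated by nuclear receptors, were most often called at acute 7 d, where 9 of 14 were higher and 3 lower. The positive arm, Npas2 (-2.77), Arntl (-1.73) and Clock (-1.19), was lower, and Dbp (2.30), Hlf (2.24) and Per3 (2.16) were higher. At acute 24 h Dbp (-3.95, adjusted p = 0.00239) and Per3 (-2.04) were lower and Nfil3, a repressor of Dbp targets, was higher (2.99), as it was at chronic 24 h (2.89). Counts of higher and lower clock genes were 2 and 0 at chronic 24 h, 2 (4 by DESeq2) and 1 at chronic 72 h, 3 and 0 at chronic 14 d, 3 and 3 at acute 24 h and 5 and 2 at acute 72 h. The hour at which cells were taken is not given in the sources used here.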
